A study of Mus musculus with 6 samples.

Results

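The genes described here are 44 proteoglycans, glycoproteins, elastic fibre proteins and matrix-processing enzymes that fibroblasts secrete or place around themselves, taken as a fixed list of gene names out of 27617 names on the array. They fall into 6 roles: 9 small leucine-rich proteoglycans, 1 large hyaluronan-binding proteoglycan, 3 basement membrane components, 14 adhesive and matricellular glycoproteins, 12 elastic fibre and microfibril proteins, and 5 cross-linking or procollagen-processing proteins. All 44 had probes, 71 in all, and the brightest probe on average stands for each gene. The probes of 39 members were well above background on all 6 arrays, and 43 members entered the tests. Spon1, an adhesive glycoprotein of the spondin family, was not well above background on any array (signals of 4.66 to 8.66 in replicate 1 and 11.6 to 17.3 in replicate 2) and was not tested.

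The study asks which genes Gadd45a regulates while somatic cells are reprogrammed. Mouse embryonic fibroblasts were profiled at day 8, in medium with serum and LIF, and every array is labelled as infected with virus-borne factors abbreviated SKO. The 3 labelled groups differ in what was added to SKO: Flag, which serves as the control, Gadd45a, a growth arrest and DNA damage gene, or G39A, named in the labels as a mutant of Gadd45a that acts negatively. The protocol text gives 6 days of culture after infection, while the sample names give day 8. Each group has 1 array of replicate 1 and 1 of replicate 2. The labels do not say whether cultures, embryos or infections were separate, so a p-value reflects nothing beyond how these arrays vary, which may be technical.

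A fibroblast's matrix is built on collagen fibrils whose diameter and spacing are set in part by small leucine-rich proteoglycans. Elastic fibres form when elastin is laid on a scaffold of fibrillin microfibrils and associated glycoproteins, and lysyl oxidases cross-link both collagen and elastin. Adhesive glycoproteins such as fibronectin join cells to this network, and matricellular ones such as thrombospondins and periostin modulate it. Such genes mark the fibroblast state that reprogramming cells leave, since the cells take on an epithelial and then a pluripotent programme.

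No slide holds arrays of both replicate numbers. All 3 replicate 2 arrays lie on 1 slide, Flag and Gadd45a replicate 1 on another, and G39A replicate 1 on a slide of its own. Any difference between the numbers is therefore also a difference between slides. Pou5f1, the gene of the pluripotency factor Oct4, gave signals of 3851, 5153 and 6363 in Flag, Gadd45a and G39A on the replicate 1 arrays. On the replicate 2 arrays it gave 3.57, 4.22 and 4.40, not well above background, although these arrays carry the label SKO too, and the labels do not spell the letters out. Klf4 and Sox2, reprogramming factors as well, did not part in this way. Klf4 gave 16286, 15458 and 16048 and then 19103, 17372 and 19703, and Sox2 gave 8.40, 8.57 and 12.5 and then 21.9, 14.9 and 14.8, of which just the signal of 21.9 exceeded background clearly. A different infection, another culture, exchanged samples and the slide cannot be told apart as sources of the Pou5f1 difference, so the groups below are named as labelled. The Gadd45a probe read 1017, 560.1 and 1395 in replicate 1 and 2309, 1870.1 and 2147 in replicate 2, so it was not brighter on the arrays labelled Gadd45a. Where these 4 probes lie relative to the introduced copies is not given in the sources used here, so none of them checks a label. All 16 fibroblast markers of a fixed list were well above background on all 6 arrays.

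Replicate 2 was set against replicate 1 within each group. Signals below are Agilent processed signals, always in the order Flag, Gadd45a and G39A. Differences are log2, after subtraction of each array's 75th percentile (749.9 to 953 signal units), with the standard error (SE) of limma's fit over 3 arrays of each number and a p-value adjusted over all 16482 genes tested. Of the 43 tested matrix genes, 39 passed the threshold of 0.05, where 58.0% of all tested genes did. Of these, 35 were higher in replicate 2, against 33.0% of all genes, and 4 were lower, against 25.0%. The same 2 shares of all genes are to be set beside the counts by role, marker list and gene list below. The median difference of the matrix genes was 1.84, and that of all tested genes 0.10. The arrays of the numbers did not overlap in 35 members that were higher (40.0% of all genes) and 4 that were lower (29.0%). A mean difference over 1 was seen in 27 members (12.1% of all genes), one under -1 in 4 (13.2%), and one over 4 in 6 (0.627%). Podn, well above background on the replicate 2 arrays only, entered the test through these, so the filter on dim probes set its direction. Of the other 42 genes 38 passed, 34 of them higher. The 3 groups gave similar medians, 1.75 in Flag, 1.88 in Gadd45a and 1.69 in G39A, and 41 members had the same sign in all groups where they were measured. These p-values take the 3 arrays of a number, which belong to different groups, as its replicates. With RNA of whole cultures, fewer fibroblasts and less RNA per fibroblast cannot be told apart.

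**Figure D1:**
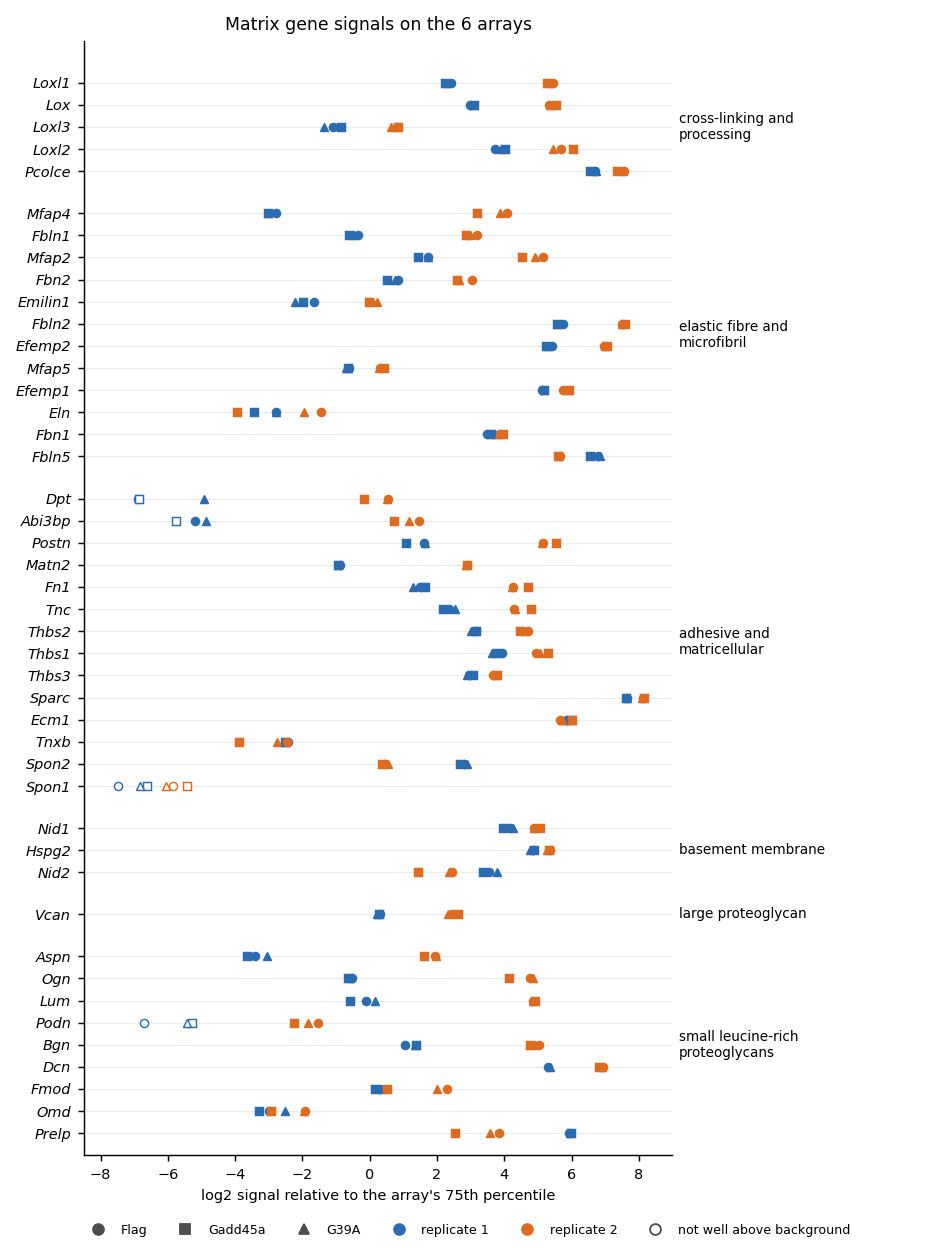
Signal of each of the 44 genes on the 6 arrays, as log2 relative to the array's 75th percentile (x axis), by role and, within a role, by the difference between the replicate numbers. Marker shape gives the group and colour the replicate number, and open markers were not well above background. Most genes show the orange replicate 2 markers to the right of the blue ones, while Prelp, Spon2, Nid2 and Fbln5 show them to the left.

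**Figure D2:**
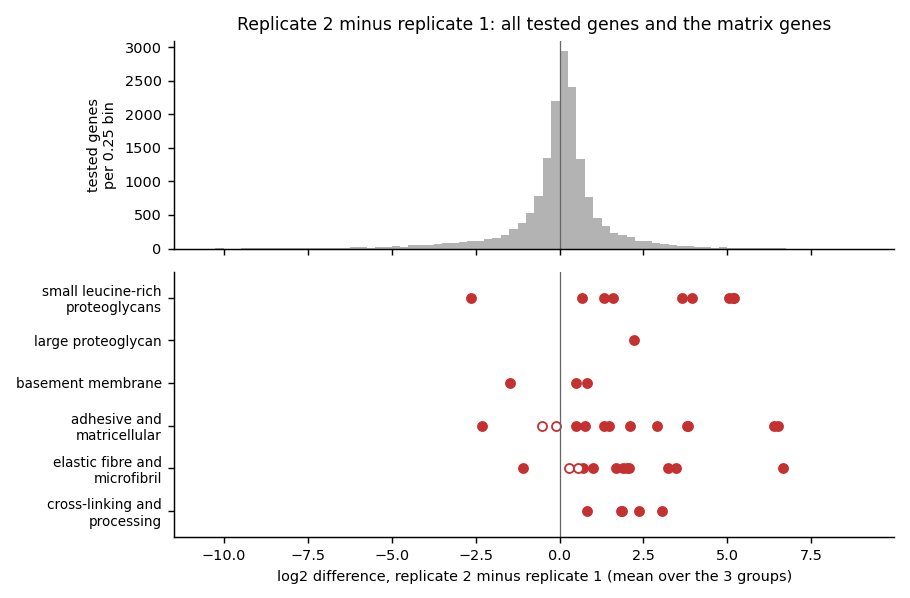
Differences between replicate 2 and replicate 1 (log2, x axis) for all 16482 tested genes as a histogram in bins of 0.25 (top) and for the 43 tested matrix genes by role (bottom). Filled points passed the adjusted p threshold of 0.05, and the 4 open points are Tnxb, Ecm1, Fbn1 and Eln. The histogram peaks near 0, while the matrix genes reach from -2.64 to 6.66.

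Markers of other cell types differed between the same arrays. The summed level of the 14 epithelial markers, in multiples of an array's 75th percentile, was 11.2 to 12.1 in replicate 1 and 2.36 to 4.06 in replicate 2. Of the 9 tested, 7 were lower in replicate 2 and 0 higher, and Cdh1, Epcam and Ocln were well above background on every replicate 1 array and on no replicate 2 array. These 3 genes entered the test through replicate 1 alone, and so did 3 of the 4 tested pluripotency markers, which the filter on dim probes thereby sets as lower (Pou5f1, at least 228-fold, Tfcp2l1, at least 46.8-fold, and Zfp42, at least 11.1-fold). The summed level of the 12 pluripotency markers with probes was 6.10 to 8.47 and then 0.356 to 0.398. Pou5f1 alone made up most of the replicate 1 sum. Of these 12 markers, 6 were not well above background on any array, and the 3 named were the only ones that passed. The 16 fibroblast markers summed to 824 to 917 and then 1311 to 1348, with 10 higher and 1 lower. Pdgfra, the receptor for platelet-derived growth factor A, was 27.6-fold higher, Thy1 6.37-fold and Col1a1 2.48-fold, while Cd34 was 2.61-fold lower and Vim gave -0.029 (SE 0.13, adjusted p = 0.864). Of the 9 smooth muscle markers, which activated fibroblasts also express, 8 were higher and 0 lower (summed level 80.9 to 92.9 and then 493 to 538). The part of these markers in the matrix differences was not tested.

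Markers of macrophages, of endothelium and of cartilage and bone moved both ways, while those of adipocytes that passed were all higher. Of 12 tested macrophage markers 8 were higher and 3 lower, with a summed level of 6.49 to 7.90 and then 8.25 to 12.3. Of these, 1 of the higher and 1 of the lower entered the test through 1 replicate number alone, so the filter on dim probes set their direction. Ptprc was not well above background on any array, and Adgre1 only on the 3 replicate 2 arrays. The endothelial markers summed to 1.47 to 1.51 and then 1.97 to 3.26, with Pecam1 not well above background on any array. Of 7 tested, 2 were higher and 3 lower, 1 of the lower entering through replicate 1 alone. Those of cartilage and bone summed to 9.78 to 10.5 and then 4.51 to 5.30. Of 10 tested, 4 were higher and 4 lower, 1 of the higher entering through replicate 2 alone. Those of adipocytes summed to 11.0 to 11.6 and then 23.5 to 31.6, with 4 higher and 0 lower of 4 tested. Among the adipocyte markers, Fabp4, a fatty acid carrier, was 27.1-fold higher, and Plin1 was not well above background on any array. The part of these cells in the matrix differences was likewise not tested.

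The small leucine-rich proteoglycans had the highest median of the roles with several members, 3.65, or 3.29 with Podn at its lower bound. All 9 passed the threshold, 8 higher, Podn among them, and 1 lower. Aspn, asporin, had signals of 78.9, 68.4 and 115 in replicate 1 and 3091, 2286 and 3068 in replicate 2 (probe on chromosome 13, 49662479 to 49662538, build mm9). Every replicate 2 array was far above every replicate 1 array, 36.9-fold on average (log2 5.21, SE 0.098, adjusted p = 8.38e-05). Ogn, osteoglycin or mimecan, gave 572, 544 and 633 and then 21629, 13185 and 22655 (chromosome 13, 49719549 to 49719608), a difference of 5.18 (SE 0.15, adjusted p = 0.000126). Its lowest replicate 2 value, on the Gadd45a array, still exceeded all replicate 1 values. Omd, osteomodulin, gave 104, 87.0 and 167 and then 209.6, 98.9 and 203 (chromosome 13, 49687847 to 49687906). Here the numbers overlapped, since the Gadd45a replicate 2 array lay below the G39A replicate 1 array, and the difference was 0.67 (SE 0.16, adjusted p = 0.0247). Without the G39A arrays its adjusted p was 0.0818 for a difference of 0.72, and with no group term it was 0.127.

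Aspn, Omd and Ogn lie in this order along chromosome 13. Their promoter windows are shown because the outer genes differed by over 5 log2 units and the middle one by 0.67. The windows hold 250 bases before the RefSeq start in build GRCm38.p6, all on the plus strand: chr13:49544193-49544442 for Aspn, chr13:49582212-49582461 for Omd and chr13:49607765-49608014 for Ogn. Capitals mark the matches to 7 motifs searched on both strands: TATAAA (the TATA box), GGGCGG (the GC box), TGANTCA (AP-1), CATTCC (TEAD), CACCTG (an E-box read by Snai and Zeb factors), TGTGGT (Runx) and ATGCAAAT (the octamer).
Aspn: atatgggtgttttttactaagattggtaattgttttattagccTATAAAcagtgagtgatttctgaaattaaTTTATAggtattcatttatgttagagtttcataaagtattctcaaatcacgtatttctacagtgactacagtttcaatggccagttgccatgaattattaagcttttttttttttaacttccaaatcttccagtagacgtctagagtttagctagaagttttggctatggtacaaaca
Omd: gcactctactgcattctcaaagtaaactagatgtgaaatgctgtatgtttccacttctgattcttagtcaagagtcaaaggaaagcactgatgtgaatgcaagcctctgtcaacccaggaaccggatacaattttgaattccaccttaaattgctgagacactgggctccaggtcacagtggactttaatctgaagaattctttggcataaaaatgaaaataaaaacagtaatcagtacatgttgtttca
Ogn: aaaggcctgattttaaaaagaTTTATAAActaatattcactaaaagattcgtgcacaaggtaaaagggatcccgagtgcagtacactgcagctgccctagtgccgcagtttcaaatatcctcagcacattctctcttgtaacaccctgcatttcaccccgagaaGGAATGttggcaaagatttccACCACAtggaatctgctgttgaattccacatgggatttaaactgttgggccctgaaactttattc
The Aspn window held TATAAA at 207 and 178 bases before the start, the later match on the other strand. The Ogn window held a pair of overlapping TATAAA matches at 229 and 227 bases, CATTCC at 86 and TGTGGT at 65 bases before the start, each of the latter on the other strand. The Omd window held none of the 7 motifs. Over all 27025 windows of this length, the first listed for each gene, TATAAA was found in 12.97%, CATTCC in 12.6% and TGTGGT in 14.2%. A match here is a string of letters and not a site.

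Lum and Dcn are neighbours on chromosome 10. Lum, lumican, a keratan sulphate proteoglycan that spaces collagen fibrils, gave 765, 574 and 1065 and then 23302, 22412 and 22819 (chromosome 10, 97035210 to 97035269). The replicate 2 arrays agreed closely and were 33.2-fold above replicate 1 (log2 5.05, SE 0.17, adjusted p = 0.000152). Dcn, decorin, which binds collagen and TGF-beta, gave 32987 in Flag and 39322 in G39A on the replicate 1 arrays, its Gadd45a spot there being marked as non-uniform and left out. On the replicate 2 arrays it gave 98991, 83814 and 93121 (chromosome 10, 96980233 to 96980292). Over these 5 arrays it was 2.99-fold higher in replicate 2 (log2 1.58, SE 0.11, adjusted p = 0.00213). A neighbour outside the 44, Kera, the cornea's keratocan, was well above background only on the 3 replicate 2 arrays (72.0 to 117), at least 4.46-fold higher. Epyc, epiphycan, read 4.64 to 23.9 and then 187 to 267, with 1 of the 3 replicate 1 arrays well above background.

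**Figure D3:**
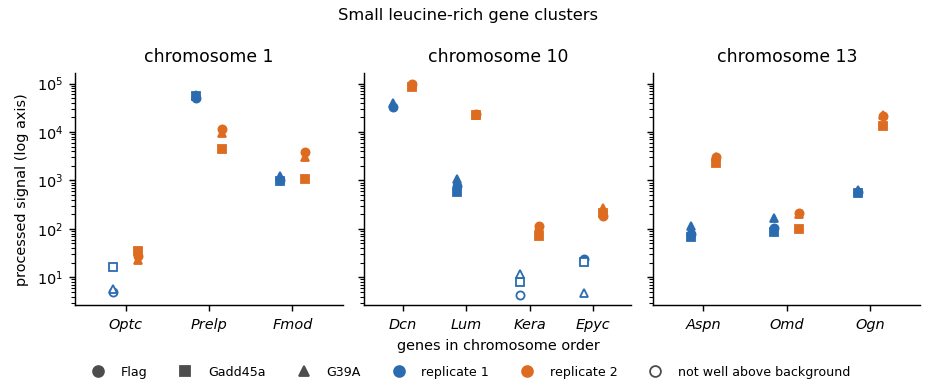
Processed signal (log axis) of small leucine-rich genes in 3 chromosomal clusters, with genes in chromosome order along each x axis, markers by group and colours by replicate number; open markers were not well above background. Aspn and Ogn part widely between the numbers with Omd between them showing little separation, and on chromosome 1 Prelp is lower and Fmod higher in replicate 2.

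Prelp, a proline- and arginine-rich member that anchors basement membranes to connective tissue, was the exception in its family. Its signal was 50446, 54580.0 and 59043 and then 11526, 4371 and 9347 (chromosome 1, 135806934 to 135806993), so that all replicate 2 arrays were below all replicate 1 arrays. The difference was -2.64 (SE 0.30, adjusted p = 0.00284), 6.21-fold lower. Its other measured probe gave -2.59. Fmod, fibromodulin, lies next to it in probe order on chromosome 1 (135943998 to 135944057) and went the other way, 1027, 953 and 1239.9 and then 3927, 1070.1 and 3115. Flag and G39A parted clearly between the numbers (1.98 and 1.61) and Gadd45a little (0.36), and the mean difference was 1.32 (SE 0.35, adjusted p = 0.0327). Without the Flag arrays Fmod gave 0.99 (adjusted p = 0.12), and without the G39A arrays 1.17 (adjusted p = 0.136).

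The windows of these neighbours are given for the same reason, that they differ in direction: chr1:133921402-133921651 on the minus strand for Prelp and chr1:134037004-134037253 on the plus strand for Fmod (GRCm38.p6, RefSeq).
Prelp: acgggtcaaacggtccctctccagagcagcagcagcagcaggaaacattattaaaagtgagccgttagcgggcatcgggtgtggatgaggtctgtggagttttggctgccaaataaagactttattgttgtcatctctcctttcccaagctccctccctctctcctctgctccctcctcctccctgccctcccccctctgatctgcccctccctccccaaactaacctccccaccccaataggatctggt
Fmod: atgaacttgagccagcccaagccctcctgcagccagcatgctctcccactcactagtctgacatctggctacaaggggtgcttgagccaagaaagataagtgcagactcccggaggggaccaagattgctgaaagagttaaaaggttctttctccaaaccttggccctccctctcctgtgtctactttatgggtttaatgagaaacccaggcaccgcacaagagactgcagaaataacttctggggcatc
Neither window held any of the 7 motifs, so there are no capitals. This says only that these letters are not in these 250 bases.

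Of the remaining small leucine-rich members, Bgn, biglycan, gave 1711, 2207 and 2438 and then 26415, 20534 and 23361 (chromosome X, 70738554 to 70738613). It was 12.6-fold higher in replicate 2 (log2 3.65, SE 0.14, adjusted p = 0.000197), with every replicate 2 array above every replicate 1 array. Its other probe was not well above background on any replicate 1 array. Podn, podocan, gave 7.97, 21.8 and 21.8 on the replicate 1 arrays, none well above background, and 278, 157 and 221 on the replicate 2 arrays. Against the lowest signals that count as well above background, it was at least 9.78-fold higher.

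Vcan, versican, the large chondroitin sulphate proteoglycan that binds hyaluronan, gave 1017, 1036 and 1102 and then 4405, 4594 and 3932. It was 4.62-fold higher in replicate 2 (log2 2.21, SE 0.087, adjusted p = 0.000198) with no overlap. Its 4 measured probes gave differences from 1.15 to 2.21, one of them with 1 replicate 1 array well above background.

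The basement membrane components split. Hspg2, perlecan, a heparan sulphate proteoglycan, gave 24126, 25315 and 26096 and then 33186, 30075 and 29934, a difference of 0.48 (SE 0.074, adjusted p = 0.00732) that narrowed to 0.25 with quantile normalization (adjusted p = 0.056). Nid1, nidogen, which links laminin to collagen IV, gave 14803, 13410.5 and 18202 and then 23729, 24929 and 23251, higher by 0.82 (SE 0.12, adjusted p = 0.00608). Its paralogue Nid2 went down, from 9761, 8758 and 13058 to 4418, 2046 and 4003. All replicate 2 arrays of Nid2 were below all replicate 1 arrays, 2.78-fold on average (log2 -1.47, SE 0.18, adjusted p = 0.00349).

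Of the 13 tested adhesive and matricellular glycoproteins 10 were higher, 1 was lower and 2 did not pass, with a median of 1.47. Fn1, fibronectin, the main adhesive ligand of integrins, gave 2336, 2704 and 2337 and then 15317, 19408 and 14802 (probe between 71637422 and 71639659 of chromosome 1, mm9). It was 7.54-fold higher in replicate 2 (log2 2.91, SE 0.092, adjusted p = 0.000134), and its 3 measured probes agreed, from 2.88 to 2.91. Sparc, osteonectin, a collagen-binding matricellular protein, was bright everywhere, 166449, 168532 and 190753 and then 225386, 214667 and 216038. Its difference was small but larger than the spread, 0.50 (SE 0.075, adjusted p = 0.00662). The thrombospondin Thbs1 gave 12768, 11749.5 and 11786 and then 24544, 29599 and 25922, higher by 1.31 (SE 0.13, adjusted p = 0.00218), while its relatives Thbs2 and Thbs3 were higher by 1.47 and 0.75.

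Dpt, dermatopontin, which promotes collagen fibril assembly, and Abi3bp, a matrix protein that binds an Abl interactor, went from near background to high signal. Dpt gave 6.99, 7.39 and 31.3, only the G39A array being well above background, and then 1177, 661 and 1121 (chromosome 1, 166753703 to 166753762). Its fitted difference of 6.52 (SE 0.41, adjusted p = 0.000572) rests partly on the 2 dim values, and with these at the lowest signal well above background on their arrays it would be 5.28. Abi3bp gave 22.5, 15.8 and 32.5, with Flag and G39A well above background, and then 2230.5, 1248 and 1741, a difference of 6.40 (SE 0.15, adjusted p = 0.000105) or 6.02 with its dim value treated likewise. On these probes the replicate 2 arrays of both genes lay more than an order of magnitude above those of replicate 1. The other measured probe of Abi3bp gave 5.39, with no replicate 1 array well above background. A further Abi3bp probe was not well above background on any array.

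Dpt's promoter window is shown as an example of a member that was near background in replicate 1 and bright in replicate 2 (chr1:164796413-164796662, plus strand, GRCm38.p6, RefSeq).
Dpt: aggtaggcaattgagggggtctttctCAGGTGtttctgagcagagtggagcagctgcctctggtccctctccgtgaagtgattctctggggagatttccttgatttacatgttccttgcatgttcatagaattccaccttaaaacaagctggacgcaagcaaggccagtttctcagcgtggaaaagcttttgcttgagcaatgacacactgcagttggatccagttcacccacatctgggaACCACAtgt
It held CACCTG at 224 bases before the start, a motif found in 17.1% of all windows, and TGTGGT at 9 bases, both on the other strand. Windows were available for 27 of the 44 genes. Over these, TATAAA was found in 5 (Aspn, Ecm1, Ogn, Thbs2 and Tnc), GGGCGG in 15 (32.9% of all windows) and TGANTCA in 3 (6.87%). The TEAD, E-box and Runx motifs were found in 2 windows each, and the octamer in 1 (1.61%).

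Postn, periostin, a matricellular ligand of integrins, ranged from 1803 to 2980.1 in replicate 1 and 27070.2 to 35136 in replicate 2 (14.2-fold higher, adjusted p = 0.000555). Tnc, tenascin C, which loosens adhesion, ranged from 3878 to 5579 and then 15772 to 20861 (4.32-fold higher, adjusted p = 0.00157). Matn2, matrilin 2, a filament-forming adaptor, ranged from 444 to 492 and then 5572 to 5978 (14.0-fold higher, adjusted p = 8.38e-05). The arrays of the numbers did not overlap for any of these 3 genes.

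Spon2, a spondin, was the adhesive member that was lower in replicate 2, from 5769.9, 5465 and 7023 to 1109, 976 and 1144. The groups agreed to within 0.04 (-2.33, -2.29 and -2.33), and it was 4.99-fold lower (SE 0.074, adjusted p = 0.000136). Ecm1, a secreted glycoprotein of skin and vessels, gave 48274, 54660.3 and 53395 and then 40433, 48303 and 41299, -0.093 (SE 0.085, adjusted p = 0.394). Its numbers overlapped, its other measured probe gave 0.05, and its sign turned when arrays were scaled to their medians (0.05). With quantile normalization it was lower in replicate 2 (-0.40, adjusted p = 0.0124), as with the authors' deposited table (-0.40, adjusted p = 0.0123). The columns of that table are nearly alike in distribution, so the 2 results are not independent. Tnxb, tenascin X, which bundles collagen, gave 153, 148 and 164 and then 146, 50.4 and 115, -0.54 (SE 0.30, adjusted p = 0.191). Only its Gadd45a replicate 2 array stood clearly below the others.

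Of the 12 elastic fibre and microfibril proteins 9 were higher, 1 was lower and 2 did not pass, with a median of 1.79. Mfap4, a microfibril-associated glycoprotein of elastic fibres, gave 120.4, 105 and 117 and then 13649, 6849 and 11452 (chromosome 11, 61302096 to 61302155, mm9). This was the largest difference of the 43 tested genes, 101-fold (log2 6.66, SE 0.17, adjusted p = 0.000105), with all 6 arrays well above background. Mfap2 and Mfap5, glycoproteins bound along fibrillin microfibrils, were higher by 3.22 (SE 0.099) and 0.99 (SE 0.079), and Emilin1, found where elastin meets microfibrils, by 2.02 (SE 0.17).

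The fibrillins form the microfibril backbone. Fbn2, the fibrillin of developing tissue, gave 1497, 1218 and 1604 and then 6592, 4575 and 4935, 4.18-fold higher (adjusted p = 0.000264). Fbn1, the main fibrillin of mature tissue, ranged from 9358 to 12642 and then 11249 to 11838. Its scaled values did not overlap, but the difference of 0.28 (SE 0.093) had an adjusted p of 0.0609. It passed with normexp background correction (0.28, adjusted p = 0.0239), with scaling to array medians (0.42, adjusted p = 0.0175), without a group term (adjusted p = 0.031) and among probes well above background on all 6 arrays (adjusted p = 0.0411).

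The fibulins, which link elastin, microfibrils and basement membrane, did not move together. Fbln2 gave 44707, 40779.8 and 45631 and then 145444, 144470.0 and 142563, higher by 1.90 (SE 0.091, adjusted p = 0.000301). Efemp2, fibulin 4, which brings lysyl oxidase to elastin, gave 35482, 32429.6 and 37809 and then 101262, 99647 and 100364, higher by 1.69 (SE 0.088, adjusted p = 0.000371). Fbln1 was 11.1-fold higher, from 560.4 to 696 to 5419 to 7258. Efemp1, fibulin 3, gave 28689, 31339 and 34331 and then 42653, 45537 and 46308, higher by 0.69 (SE 0.077). Fbln5, which binds elastin and integrins, went the other way, from 91367, 80042 and 110195 to 40814, 36439 and 38986. It was 2.13-fold lower with no overlap (log2 -1.09, SE 0.091, adjusted p = 0.00126), and its other measured probe gave -2.90.

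Eln, elastin itself, gave 121, 79.7 and 137 and then 293, 48.7 and 201 (chromosome 5, 135179129 to 135179188). Flag and G39A were higher in replicate 2 and Gadd45a lower, and the mean difference of 0.55 (SE 0.39) had an adjusted p of 0.283. Without the Gadd45a arrays it was 1.08 (adjusted p = 0.015).

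All 5 cross-linking and procollagen-processing genes were higher, with a median of 1.87 and no overlap in any. Lox, lysyl oxidase, gave 6568, 7354 and 7939.5 and then 32014, 34668 and 32061, 5.11-fold higher (log2 2.35, SE 0.078, adjusted p = 0.000144). Loxl2, a lysyl oxidase-like enzyme active on collagen IV, gave 11028, 13933 and 14220.5 and then 41022, 49596 and 34012, higher by 1.84 (SE 0.13). Pcolce, the enhancer of procollagen C-proteinase, gave 86653, 79848 and 101197 and then 152870.0, 121465 and 145730.0, higher by 0.82 (SE 0.075). Loxl1, which acts on elastin, was the most changed of the 5, from 4065 to 4716 to 29234 to 35418 (8.26-fold), and Loxl3 gave 386, 475 and 369 and then 1416, 1354 and 1208 (3.67-fold).

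The comparisons that the study's design names, between groups, gave no call. With limma on all 6 arrays, 0 of 43 matrix genes and 0% of the 16482 tested genes passed the threshold for Gadd45a against Flag, G39A against Flag or Gadd45a against G39A. At an unadjusted p under 0.05, limma gave 87, 74 and 105 genes in these 3 comparisons, and 0 matrix genes in each. With the replicate number as a block, calls stayed at 0. The unadjusted counts became 1431, 468 and 1415 genes (8.68%, 2.84% and 8.59% of all tested) and 7, 0 and 8 of the 43 matrix genes. The lowest adjusted p of a matrix gene was then 0.51, 0.996 and 0.547. The first and last of these comparisons share the Gadd45a arrays. Without a block the spread between replicate numbers enters the error, so that the median SE of the matrix genes was 1.14, against 0.12 with the block (0.12 in each comparison). Values within each replicate number are therefore given as a description. The G39A replicate 1 array lay on another slide than those of Flag and Gadd45a. In replicate 1, group and slide therefore cannot be told apart in any difference that involves G39A.

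For Gadd45a against Flag, 8 of the 42 matrix genes measured on all 4 arrays were higher in both replicate numbers, 19 were lower in both and 15 differed in sign. Over all genes 24.2% were higher in both and 32.3% lower in both. The medians of the matrix genes were -0.14 in replicate 1 and -0.07 in replicate 2, and of all genes -0.04 and 0.0018. In replicate 1 no matrix gene was lower by over 1 (1.36% of all genes) and 1, the dim Podn, was higher by over 1 (0.778%). In replicate 2 the 5 genes Eln, Fmod, Tnxb, Prelp and Nid2 were lower by over 1 (2.15% of all genes) and 0 higher (2.16%). For G39A against Flag no matrix gene was lower by over 1 in either number (1.67% and 1.01% of all genes), and the dim Podn and Dpt were higher by over 1 in replicate 1 (1.32%) and 0 in replicate 2 (1.09%). In this comparison 7 were higher in both, 15 lower in both and 21 of opposite sign (19.6% and 28.2% of all genes were higher or lower in both). For Gadd45a against G39A 12 were higher in both and 15 lower in both (31.1% and 28.7% of all genes). Lower by over 1 were the dim Dpt in replicate 1 (1.70% of all genes) and 4 genes in replicate 2 (1.44%), and 0 were higher by over 1 in either number (1.57% and 1.59%).

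**Figure D4:**
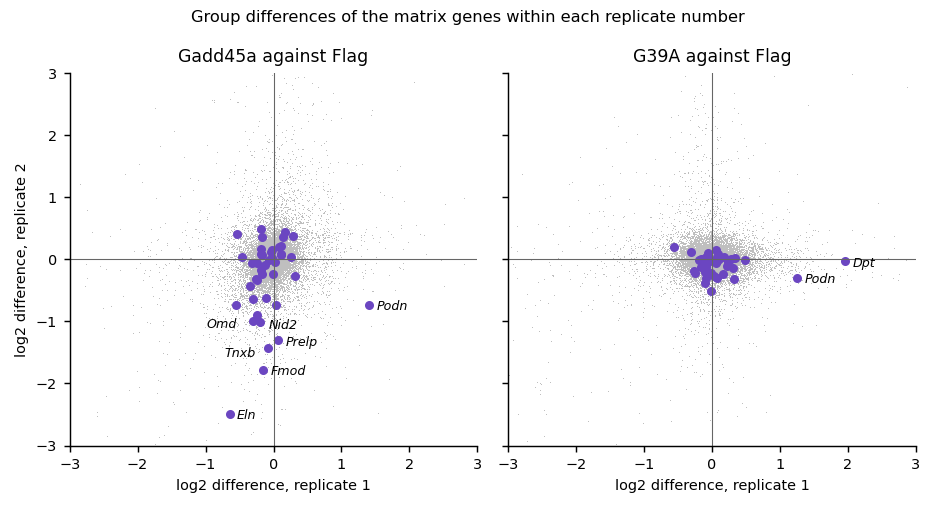
Difference between groups in replicate 2 (y axis, log2) against that in replicate 1 (x axis, log2) for the matrix genes (purple) and all tested genes (grey, those beyond 3 not drawn), for Gadd45a against Flag (left) and G39A against Flag (right). The panels share the Flag arrays. In the left panel Eln, Fmod, Tnxb, Prelp and Nid2 lie below -1 on the y axis; Podn, and in the right panel Dpt, were dim in replicate 1 and lie to the right of the other points.

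Eln was the lowest matrix gene of the Gadd45a comparison. In replicate 1 its signal of 79.7 on the Gadd45a array compared with 121 in Flag and 137 in G39A, and in replicate 2 its 48.7 compared with 293 and 201. Gadd45a was the lowest group in both numbers, by -0.65 and -2.49 against Flag and by -0.63 and -1.99 against G39A. The mean difference from Flag was -1.57 (SE 0.59, limma adjusted p = 0.99996 without a block and 0.547 with it). Against Flag, G39A gave -0.019 and -0.50.

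Fmod differed mainly in replicate 2: its Gadd45a signal was 3.43-fold below Flag there (-1.78) and 1.11-fold in replicate 1 (-0.15). Tnxb gave -0.085 and -1.44, and Nid2 -0.20 and -1.01, against Flag. Prelp was of opposite sign, 0.068 and -1.30. Against G39A in replicate 2, Fmod gave -1.48, Tnxb -1.13 and Prelp -1.04, comparisons that use the same Gadd45a array. Omd was lower than in G39A in both numbers, by -0.79 and -0.98, and lower than in Flag by -0.30 and -0.99 (mean against G39A -0.88, SE 0.46, and SE 0.19 with the block, limma adjusted p = 0.547). With 1 array per group in each number, these differences have no replicate within a number.

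**Figure D5:**
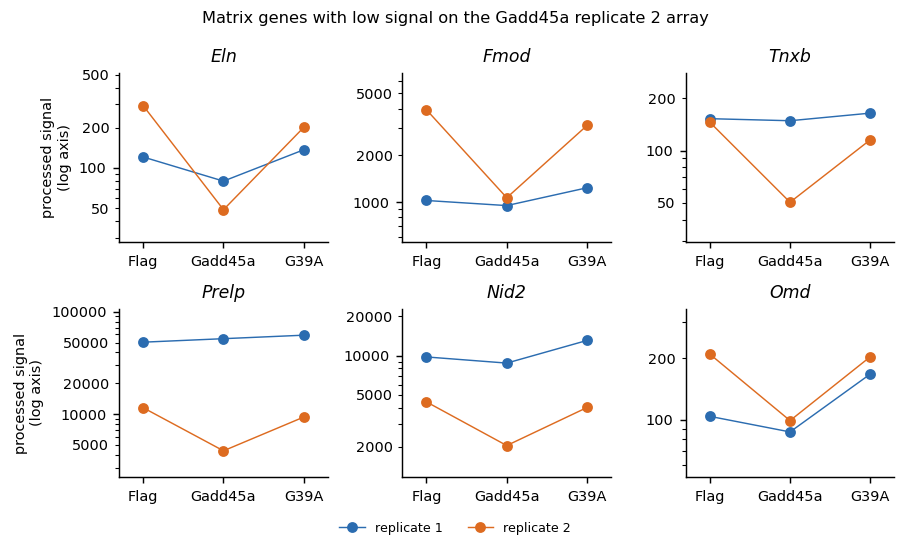
Processed signal (log axis) of 6 matrix genes on each array, by group (x axis) and replicate number (colour). Each orange line dips at Gadd45a; the blue lines dip less there, and that of Prelp does not.

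Some matrix genes were higher on the arrays labelled Gadd45a in both numbers. Fn1 was higher than Flag by 0.17 and 0.44 and higher than G39A by 0.36 and 0.45. Loxl2 was higher than Flag by 0.29 and 0.37 and than G39A by 0.12 and 0.61. Ecm1 was higher than Flag by 0.13 and 0.35, and Loxl3 higher than G39A by 0.52 and 0.23. For Fn1 against Flag the mean of 0.30 had an SE of 1.73 without a block and 0.11 with it (limma adjusted p = 0.578).

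For G39A, the genes lowest against Flag in both numbers were Eln, Fbn2 (-0.099 and -0.38) and Mfap4 (-0.24 and -0.22). The first value of each pair, from replicate 1, is also a difference between slides. The highest were Aspn (0.34 and 0.026), Lum (0.28 and 0.0062) and Efemp1 (0.061 and 0.16). Whether G39A and Gadd45a differ in their distance from Flag was not tested beyond the direct comparison above.

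Other genes of matrix assembly, from fixed lists, gave a mixed picture between the replicate numbers. Over all tested genes, 33.0% passed the threshold as higher and 25.0% as lower. Of 38 tested genes for glycosaminoglycan chain synthesis, which build the sugar chains of proteoglycans, 22 were higher and 5 lower, with a median of 0.57. Dse, the epimerase that makes dermatan sulphate, was 5.12-fold higher, and the chondroitin enzymes Chst11 and Chsy1 3.44-fold and 2.98-fold. Chst3, a chondroitin 6-sulphotransferase, was 33.4-fold lower (1238, 1725 and 1359.7, then 54.1, 27.6 and 36.2). Hs3st3a1, a heparan sulphotransferase, was 9.82-fold lower and Papss1, which supplies activated sulphate, 3.86-fold.

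Of 13 tested hyaluronan genes 6 were higher and 3 lower, against 33.0% and 25.0% of all tested genes, with a median of -0.16. Tnfaip6, a hyaluronan-binding protein, was 5.42-fold higher, and Stab2, a scavenger receptor for hyaluronan, was at least 5.80-fold lower. Stab2 was well above background in replicate 1 only, so the filter on dim probes set its direction. Of 22 genes of latent TGF-beta and matrix signalling 13 were higher and 4 lower, with a median of 0.61. Ccn5 was 28.9-fold, Ccn3 11.3-fold and Tgfbi, a TGF-beta-induced adhesive protein, 10.6-fold higher. Ccn2, connective tissue growth factor, was 2.39-fold lower and Skil, a repressor of TGF-beta signalling, was at -1.59 (log2).

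Of 34 tested leucine-rich, matrilin, SPARC-family and other glycoprotein genes outside the 44, 21 were higher and 7 lower, with a median of 1.38. Of these, 6 of the higher genes entered the test through replicate 2 alone, and with them at their lower bounds the median was 0.67. Fbln7, a fibulin, was at least 24.8-fold higher, and Thbs4 and Smoc2 gave 4.86 and 4.79, Thbs4 with 1 replicate 1 array well above background. Vit, vitrin, gave -4.96, with 1 replicate 2 array well above background, and Egflam, pikachurin, and Pcolce2 were 14.7-fold and 14.6-fold lower. Pcolce2 thus went down (7013, 7163 and 9040.0, then 436, 470.5 and 490.0) where Pcolce went up. Of 18 tested Adamts and bone morphogenetic protein proteinases 12 were higher and 2 lower, with a median of 1.46, or 1.32 with the 2 genes that entered through replicate 2 alone at their lower bounds. Adamts9 and Adamts4, which cleave versican and aggrecan, were 13.6-fold and 11.5-fold higher, and Adamts3, a procollagen N-proteinase, gave -3.32. Of all these lists 0 genes passed the threshold in a group comparison.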

How the data were processed

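The 6 arrays are Agilent 1-colour mouse arrays (Cy3), 2 per group, read with Agilent Feature Extraction 10.7 per the submitters' processing notes. The deposited spot intensity is the processed signal, background-subtracted and detrended within an array, per the file headers, and each spot also carries deposited 0 or 1 marks for signal above background, saturation and outliers. None was saturated, and 57.0% to 62.9% of spots were well above background. The authors' deposited table of log2 values, whose columns follow their own array (lowest r 0.9989) and have medians of 6.17, was made by steps not stated in the sources read. Its sorted values differ between columns by at most 0.084, as after quantile normalization. It served as an alternative, one not independent of the alternative with quantile normalization.

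Spots of a probe were averaged without control spots and outlier-marked spots, then log2 values were set relative to the array's 75th percentile. RefSeq accessions gave names to 27668 of 41174 probes (table of GRCm38.p6), and the others kept the array's name. Probe coordinates are mm9, per the file headers; exon or UTR positions were not used here. A probe was tested if at least 5 arrays had an unmarked spot and if both arrays of a group, or all 3 of a replicate number, were well above background. The latter keeps genes seen in 1 number only, and so sets their direction between the numbers, though not whether they pass. The probe of highest mean signal stood for each gene. Of the matrix genes with several measured probes, 17 in all, only those of Ecm1 differed in sign.

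Tests used limma 3.58 in R 4.3 (lmFit, eBayes) on 16482 genes with Benjamini-Hochberg adjustment: replicate number with group as a term, and groups without a block, with the replicate block as an alternative. Arrays of the same number deviated together from their group means (r 0.938 to 0.942 for each pair of groups), so the numbers were taken to pair the arrays; the pairing comes from the labels' numbers and this check. Alternatives are listed in the closing section. Gene scripts were tested on simulated data. The number of arrays limits the precision. Where a probe was dim on all 3 arrays of a number, "at least N-fold" sets the bright mean against the dim arrays' mean, each dim array counting at its lowest signal well above background unless the probe exceeds that.

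All 44 genes are named by role. Values on all 6 arrays are given for the 3 brightest members of each role, the 6 largest replicate differences each way, members dim on an array, and the 3 largest group differences each way with 1 sign in both numbers; from other lists, up to 3 genes each way and the defining markers. The members, lists and tests were chosen with earlier results of these data known. Promoter windows are from RefSeq. Only the first window listed for a gene was searched, so other starts of a gene are not covered. Signals of Gadd45a, Pou5f1, Klf4 and Sox2 are given beside the labels.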

Additional observations from a re-analysis of the deposited data

Results flagged for a closer look

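Some matrix genes moved in opposite directions in the replicate numbers under the same group comparison; with 1 array per group in each number, none of these differences was tested. For Gadd45a against Flag, Bgn gave 0.32 in replicate 1 and -0.27 in replicate 2, and Postn gave -0.54 and 0.41. Podn gave 1.41 and -0.73 in that comparison and 1.26 and -0.30 for G39A against Flag, with all its replicate 1 signals not well above background. Abi3bp, with 1 dim replicate 1 array, gave 0.33 and -0.32 for G39A against Flag. For Gadd45a against G39A, Postn gave -0.57 and 0.44, and Tnc -0.37 and 0.46. Eln, set against itself between the replicate numbers, was higher in replicate 2 in Flag (1.33) and G39A (0.84) and lower in Gadd45a (-0.52), a difference between groups that was not tested.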

How the results depend on the processing

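The count of matrix genes that differed between the replicate numbers ranged from 36 to 40 over the alternatives run, and that of all genes from 6959 to 10056. Leaving out a group's array, and with it its pair, gave 37 to 40 matrix genes and 6959 to 7453 genes. These counts stayed within 1.5 times the values reported, also with normexp, quantile normalization, array medians, the deposited table, other filters, the mean of a gene's probes and no group term. The number of genes tested changed with the filter, however. The lowest count, 36, was of 39 matrix genes tested, those well above background on all 6 arrays. With no filter on dim probes, 7323 of 27611 genes passed, against 9554 of 16482 in the main fit, and 38 of 44 matrix genes. The share of all genes that passed was thus lower there. Scaling to array medians moved the median of all genes from 0.10 to 0.25 and turned the sign of Ecm1 (0.049). With no filter on dim probes the median of all genes changed sign, to -0.12, and that of the matrix genes was 1.76. Of all genes 44.3% were then higher in replicate 2, against 57.2% in the main fit. Of 640 values for single matrix genes between the replicate numbers, 11 lost the threshold (Fmod, Omd and Hspg2) and 8 gained it (Ecm1 as lower, Fbn1 and Eln as higher). Leaving out either array of a group gives the same fit here, so the 640, the 11 and the 8 all include repeats. Between groups, with the slide as a random block, 13 genes passed for Gadd45a against Flag and 3 for G39A against Flag, none of them a matrix gene. With the replicate block, and with each array left out in turn, calls stayed at 0. Without a block, leaving out 1 array leaves the groups unbalanced over the replicate numbers, and the matrix genes' median then ran from -1.05 to 0.86 for Gadd45a against Flag, from -0.96 to 0.79 for G39A against Flag and from -0.99 to 0.96 for Gadd45a against G39A. Signal over background limits Podn, Dpt and Abi3bp in replicate 1 and Spon1 throughout.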
